A study of Rattus norvegicus with 12 samples.

Results

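The cadherins and protocadherins were described across cultured rat Müller cells, the radial glia of the retina. The genes were taken by symbol, as every gene named Cdh, Cdhr, Pcdh, Celsr, Fat or Dchs with a member number or letter, and 77 of the 17315 genes in the count files fitted. Of these, 59 passed the filter on low counts, which asks for reads in several libraries, and were tested. The other 18 had at most 230 reads in any library. Because a gene could enter the tests through the one group where it was high, the counts below describe the tested genes and not all 77.

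Poly(A) RNA was sequenced in 12 libraries of cultured cells derived from Sprague-Dawley rats, all kept in medium with 25 mM glucose. SIRMu-1, with 5 libraries from passages 6, 11, 11, 11 and 20, arose by spontaneous immortalization from pups of postnatal days 2 to 4, and it was grown with 20% serum. Replicates 3 and 5 of SIRMu-1 received gentamicin at 87 mg/L together with amphotericin B at 2.2 mg/L, and the other 3 did not. The rMC-1 cells, with 3 libraries from passages 23 to 26, are of adult origin and carry the SV40 large T antigen, and they were grown with 10% serum and without those drugs. Primary MC (4 libraries, passages 3 and 4) were primary cultures from pups of postnatal days 2 to 4, grown with 20% serum and both drugs. Each line is a single line, so replicates of SIRMu-1 or rMC-1 are samples of it. The labels do not say that the libraries of a group came from separate cultures. Age, serum, drugs, passage and immortalization cannot be told apart in rMC-1 against Primary MC. Between the lines, age, serum, passage and the mode of immortalization cannot be told apart. The SIRMu-1 libraries without the drugs match rMC-1 in that respect. In SIRMu-1 against Primary MC, passage and immortalization cannot be told apart, and only the drug-treated SIRMu-1 libraries match Primary MC on drugs.

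Cadherins are surface proteins whose extracellular repeats bind calcium and usually pair with the same or a related cadherin on a neighbouring cell. Classical cadherins hold cells together through catenins and actin, and N-cadherin (Cdh2) serves at the junctions of retinal glia and neurons. The giant Fat, Dachsous and Celsr cadherins carry signals of growth and planar polarity. Clustered protocadherins are made from tandem arrays of promoters and first exons, and the combination a neuron expresses marks its surface.

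The libraries held 26349346 to 36730443 reads in genes for SIRMu-1, 27351014 to 38125630 for rMC-1 and 22582345 to 29812705 for Primary MC. Levels are given as CPM, the read count of a gene relative to the library's reads in genes after scaling by edgeR's TMM factors, and they are not corrected for gene length, so they are compared between samples and not between genes. The labelled cell type was checked against 12 Müller cell markers, whose summed level was 3569 to 4674 CPM in SIRMu-1, 1654 to 1831 CPM in rMC-1 and 7742 to 9639 CPM in Primary MC. Sox2, Aqp4, Kcnj10 and Car2 had no reads in any SIRMu-1 library, Aqp4 and Car2 had none in rMC-1, and all 12 were detected in at least 1 primary library. In bulk RNA, fewer cells of a type and less RNA per cell cannot be told apart.

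SIRMu-1 held less of the cadherin repertoire than Primary MC, and rMC-1 held the least. At 1 CPM or more stood 23 to 28 of the 77 genes in SIRMu-1 libraries, 15 to 17 in rMC-1 libraries and 41 to 48 in Primary MC libraries. The matching counts over all genes were not computed, so these do not show whether the difference is particular to the family. Changes were tested with edgeR's quasi-likelihood test over 11321 genes, and a gene was called at a Benjamini-Hochberg adjusted p under 0.05. In SIRMu-1 against Primary MC, 4 of the 59 tested genes rose, 31 fell and 24 did not pass, so 59.3% were called, where 46.1% of all tested genes were (21.7% higher and 24.4% lower). In rMC-1 against Primary MC, 7 rose, 46 fell and 6 did not pass, so 89.8% were called, where the share over all tested genes was 70.8% (31.9% higher and 38.9% lower).

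Between the lines, SIRMu-1 was higher than rMC-1 for 30 genes and lower for 10, and 19 did not pass. That is 67.8% of the genes tested, where 63.2% of all genes were called (32.7% higher and 30.5% lower in SIRMu-1). The median log2 fold change of the family was −1.86 in SIRMu-1 against Primary MC, beside −0.02 over all tested genes. It was −3.96 in rMC-1 against Primary MC, beside −0.15 over all, and 1.69 in SIRMu-1 against rMC-1, beside 0.03 over all. With genes absent from a group set at their least fold change, the last median was 1.52 and the first 2 stayed as given. The 2 comparisons with Primary MC share those 4 libraries and so are not independent of each other.

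**Figure D1:**
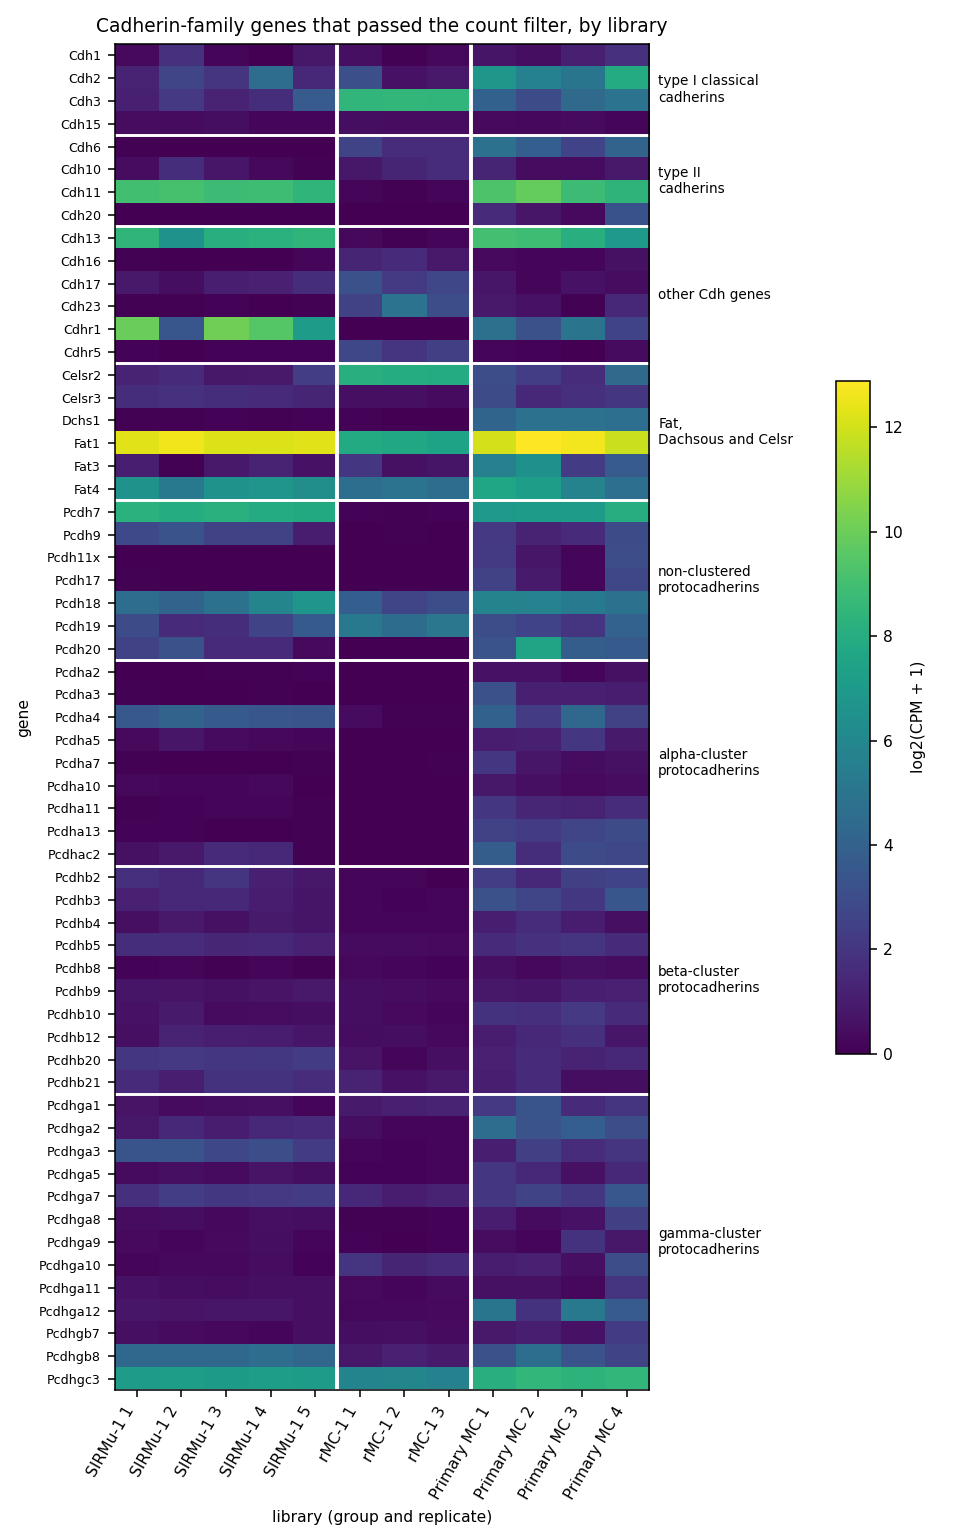
Level of the tested cadherins and protocadherins in each of the 12 libraries, SIRMu-1 left, rMC-1 in the middle and Primary MC right, with genes grouped by class and the colour giving log2(CPM + 1). Brighter cells are higher levels: Cdh11, Cdh13 and Pcdh7 are bright in SIRMu-1 and Primary MC and dark in rMC-1, and Cdh3 and Celsr2 are bright in rMC-1.

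Within the calls of SIRMu-1 against Primary MC, 25 of 35 genes (71.4%) had levels that did not overlap between the groups, and over all called genes that share was 74%. It was 50 of 53 (94.3%) for rMC-1 against Primary MC, where all called genes gave 94.5%, and 38 of 40 (95%) for SIRMu-1 against rMC-1, where all gave 92.5%. The family's shares thus lay near those of all called genes. SIRMu-1 calls against Primary MC were the least firm. When libraries whose file names carry one code were added together, 16 of the 35 calls were lost, and when only the 2 drug-treated SIRMu-1 cultures were used, 14 were lost. Over all genes, the calls in this comparison went from 5220 to 3173 and to 3415 in these fits, which held fewer libraries. The loss was thus not confined to the family.

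Among the type I classical cadherins, 2 of 4 tested genes fell in SIRMu-1, and in rMC-1 1 rose and 1 fell. Either line thus had 50% called, where all tested genes gave 46.1% in SIRMu-1 and 70.8% in rMC-1. Both lines had little N-cadherin. Cdh2 stood at 1.39, 5.44, 2.81, 23.7 and 1.76 CPM in SIRMu-1, 7.86, 0.536 and 0.869 CPM in rMC-1 and 111, 50.3, 31.6 and 244 CPM in Primary MC. Every library of either line was below every primary library. The log2 fold change was −3.95 ± 1.04 (SE, edgeR adjusted p = 0.00888) in SIRMu-1 and −5.16 ± 1.38 (adjusted p = 0.00527) in rMC-1, each against Primary MC. With the counts of libraries of one code summed, the SIRMu-1 value was −3.80 and missed the threshold (adjusted p = 0.0595). SIRMu-1 and rMC-1 did not differ past the threshold for Cdh2 (1.21 ± 1.13, adjusted p = 0.374).

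P-cadherin (Cdh3), the classical cadherin of placenta and of basal layers of stratified epithelia, went the other way in rMC-1. Cdh3 stood at 1.21, 3.34, 1.36, 2.17 and 11.8 CPM in SIRMu-1, 359, 372 and 356 CPM in rMC-1 and 15.03, 6.74, 21.4 and 28.7 CPM in Primary MC. The 3 rMC-1 libraries were closely spaced and far above all others, and SIRMu-1 overlapped Primary MC through its replicate 5. The log2 fold change of rMC-1 against Primary MC was 4.34 ± 0.73 (edgeR adjusted p = 0.000248), and that of SIRMu-1 against rMC-1 was −6.51 ± 0.74 (adjusted p = 1.65e-05). SIRMu-1 was lower than Primary MC (−2.17 ± 0.62, adjusted p = 0.014), and this call was lost with the drug-treated SIRMu-1 cultures alone (−1.43, adjusted p = 0.187). E-cadherin (Cdh1), the epithelial classical cadherin, did not follow Cdh3: it reached at most 2.55 CPM in SIRMu-1, 0.427 CPM in rMC-1 and 2.56 CPM in Primary MC, and passed no test. In rMC-1 against Primary MC it passed with codes summed (−2.60, adjusted p = 0.0389), with only those groups in the fit (−2.29, adjusted p = 0.0454) and without SIRMu-1 replicate 2 (−2.36, adjusted p = 0.0489). Cdh15, the M-cadherin of muscle, passed none either and was at most 0.371 CPM in any library; without TMM scaling it passed in rMC-1 against Primary MC (1.06, adjusted p = 0.0462).

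The summed level of 12 epithelial markers was 9.07 to 21.5 CPM in SIRMu-1, 66.0 to 108 CPM in rMC-1 and 2.47 to 10.3 CPM in Primary MC. Of the 4 that could be tested, 2 rose and none fell in SIRMu-1 against Primary MC, where Cdh3 was lower, and 3 rose and none fell in rMC-1. The shares that rose were 50% and 75%, where 21.7% and 31.9% of all tested genes rose. Grhl2 was among the genes that rose in both lines. It had only a few reads in SIRMu-1 and none in Primary MC, and it passed the filter through rMC-1. Its calls were thus favoured by the filter, and the SIRMu-1 call rests on those few reads. The keratin Krt8 made up most of the sum at 67.3, 46.8 and 84.4 CPM in rMC-1. Krt18, Krt5 and Cldn3 had no reads in rMC-1. Their part in the Cdh3 result was not tested.

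Of the type II cadherins, whose members are widespread in neural and mesenchymal tissue, 2 of 4 tested fell in SIRMu-1 and 3 of 4 in rMC-1. No others of them were called, so 50% and 75% were, where all tested genes gave 46.1% and 70.8%. Cdh11, the mesenchymal OB-cadherin, separated the lines. It stood at 502, 559, 461, 468 and 342 CPM in SIRMu-1, 0.171, 0.0412 and 0.184 CPM in rMC-1 and 634, 927, 454 and 332 CPM in Primary MC. SIRMu-1 overlapped Primary MC (−0.33 ± 0.29, adjusted p = 0.366), whereas rMC-1 fell by 12.14 ± 0.59 on the log2 scale (edgeR adjusted p = 3.34e-08). SIRMu-1 exceeded rMC-1 by 11.81 ± 0.58 on the log2 scale (adjusted p = 4.72e-08). The summed level of 10 fibroblast markers was 37780 to 58770 CPM in SIRMu-1, 3376 to 4907 CPM in rMC-1 and 29950 to 134500 CPM in Primary MC. Against Primary MC, 9 of the 10 fell and 1 rose in rMC-1, and 5 fell and none rose in SIRMu-1, where Cdh11 passed no test. The shares called were 100% in rMC-1 and 50% in SIRMu-1, where all tested genes gave 70.8% and 46.1%. The part of these markers in the Cdh11 result was not tested.

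Cdh6, K-cadherin of kidney and of subsets of neural cells, was the reverse between the lines. A single read in replicate 1 was all that SIRMu-1 held, whereas rMC-1 had 5.30, 2.12 and 2.13 CPM and Primary MC had 28.2, 13.6, 5.05 and 16.1 CPM. The ratio of the groups' levels put SIRMu-1 2260-fold below Primary MC (95% counting interval 405 to 89400) and 430-fold below rMC-1 (76.6 to 17000), intervals that cover counting error only. rMC-1 was itself lower than Primary MC, with overlap (−2.31 ± 0.57, edgeR adjusted p = 0.00339). Cdh20, a cadherin of neural and neural crest tissue, had no reads in either line and 1.97, 0.749, 0.268 and 8.59 CPM in Primary MC. Against 3 reads over the group, it was at least 131-fold lower in SIRMu-1 and at least 113-fold lower in rMC-1, and the SIRMu-1 call was lost with file-name codes summed (adjusted p = 0.0582) or with the drug-treated cultures alone (adjusted p = 0.0525). VE-cadherin (Cdh5), which defines endothelium, had no reads in rMC-1 or Primary MC and at most 0.0629 CPM in SIRMu-1. Cdh10 passed no test, although without SIRMu-1 replicate 2 it was lower in SIRMu-1 than in rMC-1 (−2.12, adjusted p = 0.0328).

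Several cadherins were seen almost solely in replicate 4 of Primary MC, and did not pass the filter on low counts. Cdh8 was at 0, 0.0749, 1.48 and 10.1 CPM in the 4 primary libraries and Cdh22 at 0.197, 0.0374, 0 and 6.08 CPM. Both are type II cadherins of brain. Cdh19, a cadherin of Schwann cell precursors, was at 0, 0.0374, 0.224 and 1.72 CPM in the same libraries. That replicate also had the highest Cdh2, the highest Cdh20 and the highest levels of the glial genes S100b (21.8 CPM, where the others had 1.76 to 4.02), Gfap (19.3 CPM, where the others had 2.10 to 3.00) and Sox2 (8.15 CPM, where the others had 0.224 to 1.10). These glial genes were picked from the 7 astrocyte and 12 Müller cell markers after their values were seen. The same replicate had the lowest primary levels of Cdh11 (332 CPM), Cdh13 (124.5 CPM), Fat1 (3698 CPM), Fat4 (25.6 CPM) and Cdhr1 (5.02 CPM). The link between these values was not tested.

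**Figure D2:**
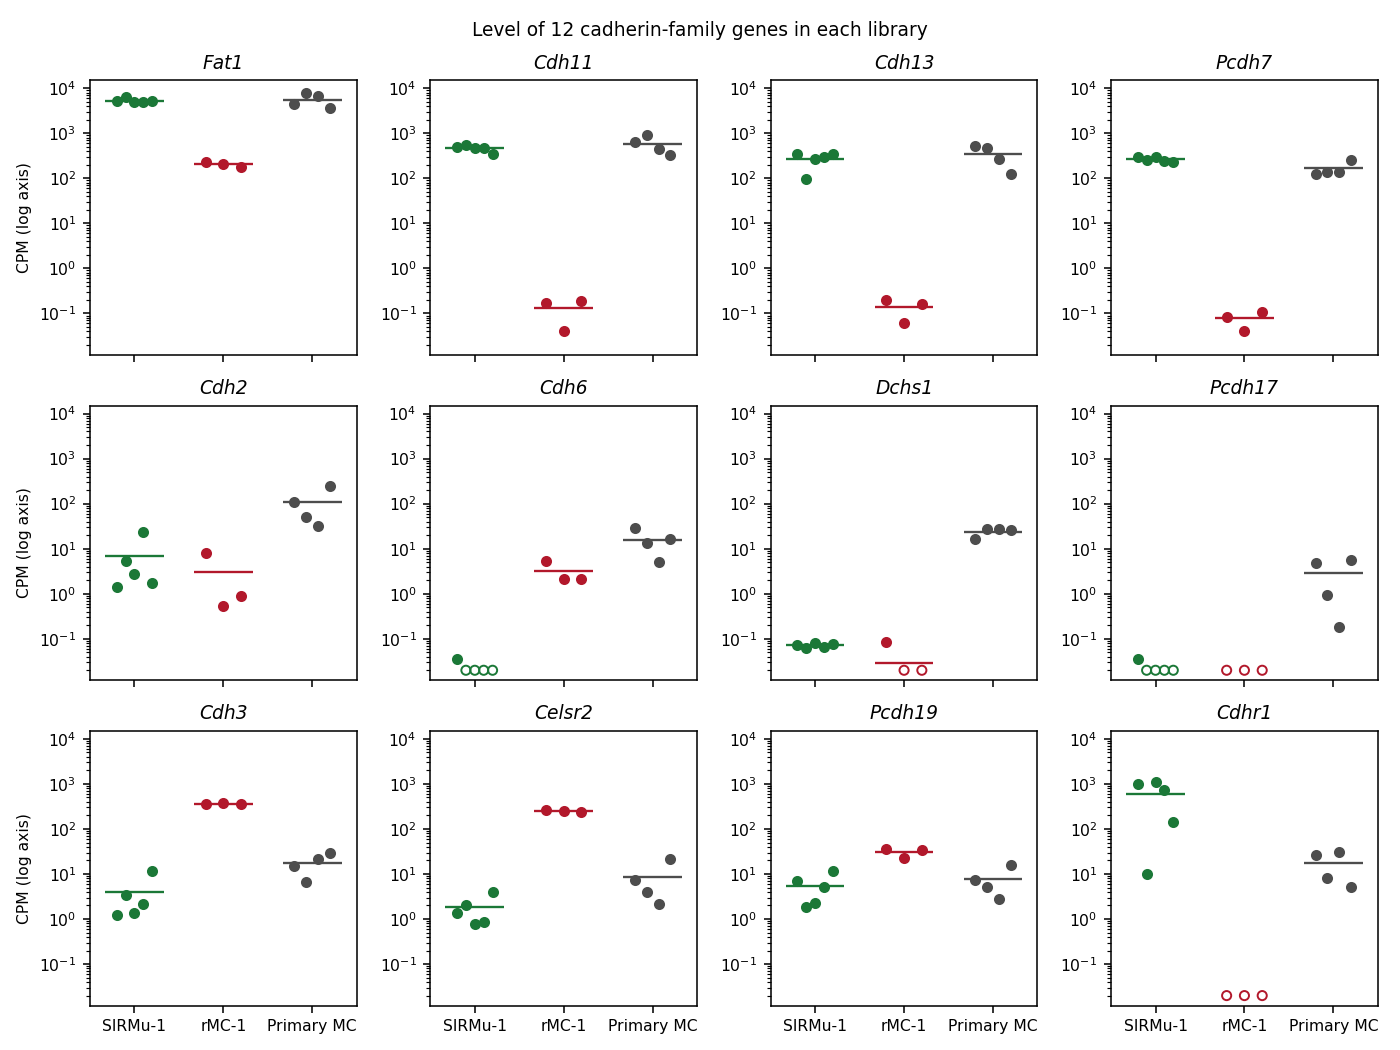
Level of 12 members in every library, in CPM on a log axis, with SIRMu-1 left, rMC-1 in the middle and Primary MC right; each point is 1 library, each line a group mean, and open circles at 0.02 stand for 0 reads. Cdh11, Cdh13 and Pcdh7 are at 0.199 CPM or less in rMC-1, while Cdh3 and Celsr2 stand at 244 CPM or more there.

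The remaining Cdh and Cdhr genes include forms without the usual catenin-binding tail. T-cadherin (Cdh13), which has no cytoplasmic domain and is held by a lipid anchor, followed Cdh11: it stood at 340, 97.0, 272, 303 and 348 CPM in SIRMu-1, 0.199, 0.0618 and 0.158 CPM in rMC-1 and 530, 475, 270.0 and 125 CPM in Primary MC. SIRMu-1 overlapped Primary MC (−0.36 ± 0.42, adjusted p = 0.51), and rMC-1 was below both groups (−11.31 ± 0.85 against Primary MC, edgeR adjusted p = 5.91e-07). Cdhr1, a cadherin of photoreceptor outer segment discs, varied widely within SIRMu-1. It stood at 977, 9.85, 1115, 731 and 141 CPM in SIRMu-1, and at 26.6, 8.27, 30.4 and 5.02 CPM in Primary MC, with no reads in rMC-1. Replicate 2 of SIRMu-1 lay within the primary range, and the other 4 lay above it. The log2 fold change against Primary MC was 5.08 ± 1.25 (edgeR adjusted p = 0.00821). rMC-1 was at least 705-fold lower than Primary MC, and SIRMu-1 was at least 23200-fold higher than rMC-1.

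Of the 6 remaining Cdh and Cdhr genes tested, 1 rose and 2 fell in SIRMu-1, and 4 rose and 2 fell in rMC-1, each against Primary MC. Called were 50% and 100%, where all tested genes gave 46.1% and 70.8%. The 4 that rose in rMC-1 were Cdhr5, Cdh17, Cdh23 and Cdh16. Cdhr5, which links microvilli of the intestinal brush border, stood at 0.0315 to 0.107 CPM in SIRMu-1, 5.81, 2.97 and 4.53 CPM in rMC-1 and 0.118, 0.0748, 0 and 0.308 CPM in Primary MC. Its log2 fold change was 5.11 ± 0.67 in rMC-1 against Primary MC (edgeR adjusted p = 3.78e-05) and −5.75 ± 0.64 in SIRMu-1 against rMC-1 (adjusted p = 1.43e-05). Cdh17, the liver and intestine cadherin, stood at 8.09, 3.56 and 5.66 CPM in rMC-1 and at most 0.71 CPM in Primary MC (3.71 ± 0.61, adjusted p = 0.000192). Cdh17 in SIRMu-1, at 0.378 to 2.21 CPM, was lower than in rMC-1 (−2.31 ± 0.53, adjusted p = 0.00245) and missed the threshold against Primary MC (1.40, adjusted p = 0.0527). That comparison passed without replicate 2 of SIRMu-1 or replicate 1 of Primary MC (1.63 and 1.74), with DESeq2 (1.38, adjusted p = 0.0327), with the drug-treated SIRMu-1 cultures alone (1.95, adjusted p = 0.0358) and under a replicate block (1.07, adjusted p = 0.0441).

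Cdh23, part of the tip link of inner ear hair cells and also expressed in retina, stood at 0 to 0.0826 CPM in SIRMu-1, 4.93, 29.4 and 7.27 CPM in rMC-1 and 0.868, 0.561, 0.0447 and 1.85 CPM in Primary MC. It rose in rMC-1 against Primary MC (4.06 ± 0.86, edgeR adjusted p = 0.00122) and was lower in SIRMu-1 than in rMC-1 (−8.21 ± 1.01, adjusted p = 3.11e-05). SIRMu-1 also fell against Primary MC (−4.15 ± 0.98, adjusted p = 0.005), but not with file-name codes summed (adjusted p = 0.0671) or the drug-treated cultures alone (adjusted p = 0.0952). Cdh16, the kidney cadherin, was at most 0.187 CPM in SIRMu-1, 1.57, 1.92 and 0.869 CPM in rMC-1 and 0.179 to 0.485 CPM in Primary MC. It rose in rMC-1 (2.35 ± 0.71, adjusted p = 0.0109) and was lower in SIRMu-1 than in rMC-1 (−4.57 ± 0.76, adjusted p = 0.000268). Its fall in SIRMu-1 against Primary MC (−2.21, adjusted p = 0.0347) was lost when any of SIRMu-1 replicates 1 to 4, rMC-1 replicate 1 or Primary MC replicates 1 or 4 was left out (adjusted p = 0.0503 to 0.0943), with codes summed (adjusted p = 0.107) and with the drug-treated cultures alone (adjusted p = 0.272).

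Of the Fat, Dachsous and Celsr cadherins, 3 of 6 tested fell in SIRMu-1 and none rose, while in rMC-1 5 fell and 1 rose. The share called was 50% in SIRMu-1 and 100% in rMC-1, where all tested genes gave 46.1% and 70.8%. Fat1, the giant cadherin that in mouse shapes actin and cell contacts, stood at 5202, 6250, 4850, 4815 and 5159 CPM in SIRMu-1, 233, 209 and 178 CPM in rMC-1 and 4368, 7641, 6607 and 3698 CPM in Primary MC. SIRMu-1 lay within the primary range (−0.09 ± 0.21, adjusted p = 0.757). rMC-1 fell by 4.75 ± 0.29 on the log2 scale (edgeR adjusted p = 1.58e-07) and held every library below every other.

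Fat4 and Dchs1 are a receptor and its ligand. Dchs1 stood at 0.0711, 0.0629, 0.0826, 0.0658 and 0.0749 CPM in SIRMu-1, 0.0854, 0 and 0 CPM in rMC-1 and 16.6, 27.0, 27.3 and 25.3 CPM in Primary MC. Both lines were therefore far below Primary MC, with a log2 fold change of −8.32 ± 0.47 in SIRMu-1 (edgeR adjusted p = 5.19e-07). The 3 reads in rMC-1 gave a ratio 971-fold below Primary MC (95% counting interval 332 to 4710). Fat4 stood at 95.5, 36.1, 96.2, 105 and 81.4 CPM in SIRMu-1, beside 24.6, 28.9 and 23.6 CPM in rMC-1 and 188, 144, 53.3 and 25.6 CPM in Primary MC. All 5 SIRMu-1 levels of Fat4 fell inside the primary range (−0.31, adjusted p = 0.626). Fat4 was lower in rMC-1 than in Primary MC, with overlap (−2.0 ± 0.59, adjusted p = 0.00933), and this was lost with codes summed (adjusted p = 0.106). SIRMu-1 was higher than rMC-1 for Fat4 by 1.69 ± 0.56 on the log2 scale (adjusted p = 0.0207), a call lost without any of rMC-1 replicates 1, 2 or 3 (adjusted p = 0.0616 to 0.083). It was also lost without TMM scaling (adjusted p = 0.063), with codes summed (adjusted p = 0.138) and with the SIRMu-1 cultures grown without the drugs alone (1.54, adjusted p = 0.0706).

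Fat3, which in mouse directs dendrite placement of retinal amacrine cells, was low in both lines and uneven in Primary MC. It stood at 0.0629 to 1.38 CPM in SIRMu-1, 3.10, 0.515 and 0.685 CPM in rMC-1 and 47.6, 88.6, 3.67 and 11.99 CPM in Primary MC. The log2 fold change was −5.59 ± 1.00 in SIRMu-1 (edgeR adjusted p = 0.000918) and −4.74 ± 1.18 in rMC-1 (adjusted p = 0.00345), and no library of either line reached the lowest primary one.

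The Celsr genes, seven-pass cadherins of planar polarity and neural wiring, moved apart in rMC-1. Celsr2 stood at 1.35, 2.05, 0.784, 0.856 and 4.05 CPM in SIRMu-1, 267, 252 and 244 CPM in rMC-1 and 7.45, 4.00, 2.15 and 21.2 CPM in Primary MC. It rose in rMC-1 against Primary MC (4.87 ± 0.73, edgeR adjusted p = 9.67e-05) and was lower in SIRMu-1 than in rMC-1 (−7.13 ± 0.74, adjusted p = 8.76e-06). The fall of Celsr2 in SIRMu-1 against Primary MC (−2.25, adjusted p = 0.0119, with overlap) was lost and shrank to −1.33 without Primary MC replicate 4 (adjusted p = 0.0549). It was also lost with codes summed or with the drug-treated cultures alone. Celsr3 went the other way in rMC-1, at 0.427, 0.433 and 0.290 CPM against 6.74, 1.83, 2.46 and 3.08 CPM in Primary MC (−3.19 ± 0.47, adjusted p = 8.89e-05). SIRMu-1, at 1.50 to 2.55 CPM of Celsr3, overlapped Primary MC (−0.77, adjusted p = 0.1). That value passed the threshold without Primary MC replicate 2 (−0.99).

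Of 16 planar polarity genes outside the family, 5 rose and 3 fell in SIRMu-1 against Primary MC, and 7 rose and 7 fell in rMC-1. That is 50% and 87.5% called, where 46.1% and 70.8% of all tested genes were. Wnt5a, a ligand of the pathway, stood at 35.9, 56.9, 27.1, 24.7 and 27.7 CPM in SIRMu-1, 2 reads in all in rMC-1 and 67.8, 48.4, 19.6 and 57.6 CPM in Primary MC. It was thus detected throughout in SIRMu-1 and Primary MC, whose levels overlapped (−0.49, adjusted p = 0.29).

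Non-clustered protocadherins adhere weakly and act mainly in neural development. Of 7 tested, 1 rose and 3 fell in SIRMu-1 against Primary MC, and 1 rose and 6 fell in rMC-1. Called were 57.1% and 100%, where all tested genes gave 46.1% and 70.8%. Pcdh7 stood at 299.9, 256, 290.4, 246 and 231 CPM in SIRMu-1, 0.0854, 0.0412 and 0.105 CPM in rMC-1 and 124, 139, 141 and 258 CPM in Primary MC. rMC-1 thus held almost none (−11.04 ± 0.42 against Primary MC, edgeR adjusted p = 1.38e-08), and SIRMu-1 exceeded rMC-1 by 11.71 ± 0.43 on the log2 scale (adjusted p = 1.16e-08). SIRMu-1 was also called higher than Primary MC (0.68 ± 0.21, adjusted p = 0.0198), but Primary MC replicate 4 lay within its range. That call was lost without Primary MC replicate 1, 2 or 3 (0.55, 0.59 and 0.60), with codes summed (0.57) and with the drug-treated cultures alone (0.66).

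Pcdh9 and Pcdh18 followed the same division between the lines. Pcdh9 stood at 6.19, 8.72, 4.83, 4.77 and 1.01 CPM in SIRMu-1, 0.0285, 0.0412 and 0.0263 CPM in rMC-1 and 3.43, 1.39, 1.97 and 6.79 CPM in Primary MC. SIRMu-1 and Primary MC overlapped for Pcdh9 (0.59, adjusted p = 0.41), while rMC-1 lay below both (−6.53 ± 0.94 against Primary MC, adjusted p = 7.27e-05). Pcdh18 stood at 23.5, 16.2, 28.6, 58.2 and 103 CPM in SIRMu-1, 13.2, 5.52 and 7.72 CPM in rMC-1 and 54.0, 51.3, 37.9 and 27.4 CPM in Primary MC. rMC-1 was lower than Primary MC (−2.27 ± 0.61, adjusted p = 0.0053) and SIRMu-1 higher than rMC-1 (2.38 ± 0.60, adjusted p = 0.00429). Pcdh19, which pairs with N-cadherin in adhesion and whose loss causes an epilepsy in humans, was the non-clustered gene that rose in rMC-1. It stood at 6.90, 1.89, 2.23, 5.27 and 11.5 CPM in SIRMu-1, 36.6, 22.5 and 33.8 CPM in rMC-1 and 7.26, 5.05, 2.82 and 15.9 CPM in Primary MC (2.00 ± 0.64 in rMC-1 against Primary MC, adjusted p = 0.0143). The rMC-1 levels overlapped neither group, and SIRMu-1 was lower than rMC-1 (−2.48 ± 0.60, adjusted p = 0.00343).

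The others were seen mainly in primary cultures. Pcdh20 stood at 4.87, 8.09, 1.98, 2.04 and 0.262 CPM in SIRMu-1, 2 reads in all in rMC-1 and 8.84, 188, 12.9 and 11.8 CPM in Primary MC. Its fall in SIRMu-1 (−3.99 ± 1.04, edgeR adjusted p = 0.00855) rested on Primary MC replicate 2, without which it was −1.69 (adjusted p = 0.0795), and it was also lost with codes summed (adjusted p = 0.0742). Pcdh11x, an X-linked protocadherin, had no reads in either line and 3.51, 0.711, 0.179 and 7.36 CPM in Primary MC, so it was at least 135-fold lower in SIRMu-1 and at least 116-fold lower in rMC-1. The SIRMu-1 call was lost with codes summed (adjusted p = 0.0559) and with the drug-treated cultures alone (adjusted p = 0.0527). Pcdh17 had 1 read in SIRMu-1, none in rMC-1 and 4.69, 0.936, 0.179 and 5.68 CPM in Primary MC. The ratio put SIRMu-1 403-fold below Primary MC (95% counting interval 71.7 to 16000), and rMC-1 was at least 116-fold lower.

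**Figure D3:**
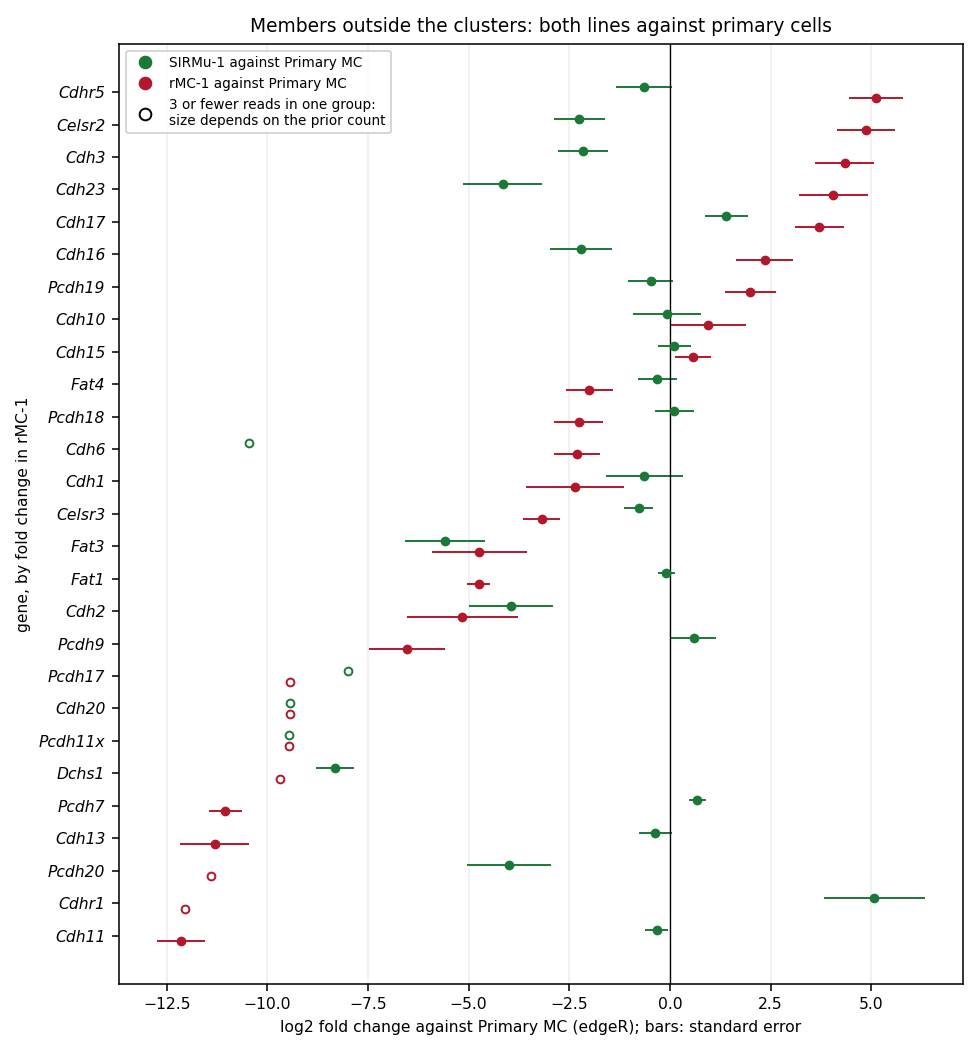
Log2 fold change of the tested members outside the clusters in SIRMu-1 (green) and rMC-1 (red), each against Primary MC, in order of the rMC-1 value; bars are 1 standard error, and open circles mark genes with 3 or fewer reads in 1 group, whose fitted size depends on the prior count. Cdh3 and Celsr2 lie above 0 in rMC-1 at 4.34 and 4.87 and below 0 in SIRMu-1 at −2.17 and −2.25.

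The clustered protocadherins lie in 3 tandem arrays on rat chromosome 18. Neighbouring genes of an array resemble each other closely, and the alpha and gamma genes share their last exons, so reads may have been split or set aside between them and each count is uncertain. Of 39 in the files 32 were tested: 2 rose and 19 fell in SIRMu-1 against Primary MC, none rose and 29 fell in rMC-1 against Primary MC, and 20 were higher and 2 lower in SIRMu-1 than in rMC-1. In that order 65.6%, 90.6% and 68.8% were called, where all tested genes gave 46.1%, 70.8% and 63.2%. The beta and gamma genes that the results turn on are shown by the stretch of promoter around a shared run of letters. The sequences are from RefSeq promoter windows of the GRCr8 build, all on the plus strand of chromosome 18. Each window runs from 250 bases before the gene's start to 50 after it. In the beta genes the capitals mark GGTGGCGCTG, and in the gamma genes CGCTGTT. The first is the longest run held by all 11 beta windows and the second the longest held by all but 1 of the gamma windows, so how often these windows hold them is fixed by that choice.
Pcdhb20, chr18:29485800-29485849: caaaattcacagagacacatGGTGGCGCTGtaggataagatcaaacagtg
Pcdhb21, chr18:29492139-29492188: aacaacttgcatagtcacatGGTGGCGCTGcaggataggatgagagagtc
Pcdhb5, chr18:29302394-29302443: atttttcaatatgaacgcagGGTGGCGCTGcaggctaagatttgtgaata
Pcdhb2, chr18:29279913-29279962: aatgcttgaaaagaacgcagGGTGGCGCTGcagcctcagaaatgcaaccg
Pcdhb3, chr18:29285594-29285643: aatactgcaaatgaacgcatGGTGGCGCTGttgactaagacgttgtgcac
Pcdhb10, chr18:29391768-29391817: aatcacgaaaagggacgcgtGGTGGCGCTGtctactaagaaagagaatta
Pcdhga3, chr18:29750310-29750356: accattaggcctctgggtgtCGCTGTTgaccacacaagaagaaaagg
Pcdhgb8, chr18:29839491-29839537: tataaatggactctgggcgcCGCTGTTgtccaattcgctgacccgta
Pcdhga2, chr18:29745078-29745124: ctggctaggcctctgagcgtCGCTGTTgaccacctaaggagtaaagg
Pcdhga12, chr18:29843857-29843903: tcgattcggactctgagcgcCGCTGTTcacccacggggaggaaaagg

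Windows were found for 51 of the 77 genes (52 windows), and both strands were searched. GGTGGCGCTG was present in all 11 beta windows, in none of 12 gamma windows and in none of 28 windows of members outside the clusters, against 74 of 33469 windows of all genes (0.221%). CGCTGTT was present in 11 of 12 gamma windows, on the minus strand for Pcdhgc3, and was not found in Pcdhga1. It was also present in 1 of 11 beta windows (Pcdhb3, where it overlaps the longer run), in 1 of 28 outside the clusters (Celsr3), and in 662 of all 33469 windows (1.98%). The runs share the letters CGCTG, and 6 of all windows held both. The single alpha window, that of Pcdha4, held neither.

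Of the alpha genes, 7 of 9 tested fell in SIRMu-1 and none rose, and all 9 fell in rMC-1, against Primary MC. The shares that fell were 77.8% and 100%, where 24.4% and 38.9% of all tested genes fell. The rMC-1 libraries held too few alpha reads for any alpha gene to pass the filter through them. Pcdha2, Pcdha3, Pcdha7, Pcdha11 and Pcdha13 were very low in SIRMu-1 too and passed through Primary MC. Their falls were thus close to fixed by the filter, so these shares are not a like comparison with those of all genes. SIRMu-1 kept a single alpha gene near its primary level. Pcdha4 stood at 10.5, 16.4, 11.5, 10.0 and 9.25 CPM in SIRMu-1, 0.313, 0.0618 and 0.0527 CPM in rMC-1 and 14.8, 3.89, 18.5 and 4.54 CPM in Primary MC. SIRMu-1 overlapped Primary MC (0.15 ± 0.49, adjusted p = 0.828), while rMC-1 was below both (−6.21 ± 0.79 against Primary MC, edgeR adjusted p = 2.87e-05). Pcdha4 took 79.8% to 95.4% of the alpha reads in SIRMu-1 libraries, 33.3% to 61.1% of the 6 to 18 alpha reads in rMC-1 libraries and 19.1% to 48.2% in Primary MC libraries. The shares in SIRMu-1 did not overlap those in Primary MC. Depth limits the rMC-1 shares.

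Most of the other alpha genes fell in SIRMu-1 to a small part of their primary level. Pcdha13 stood at 0.107, 0.0944, 0, 0.0329 and 0.0375 CPM in SIRMu-1 and at 4.69, 3.78, 5.50 and 6.66 CPM in Primary MC (−6.42 ± 0.54, edgeR adjusted p = 2.54e-05). Pcdha3 was at most 0.0658 CPM in SIRMu-1, against 8.05, 1.16, 1.21 and 1.06 CPM in Primary MC (−6.48 ± 0.98, adjusted p = 0.000576). Neither gene's levels overlapped. Both had no reads in rMC-1, where Pcdha13 was at least 206-fold and Pcdha3 at least 119-fold lower than in Primary MC. Pcdhac2, a C-type gene at the end of the alpha array, stood at 0.498, 0.850, 1.98, 1.68 and 0.0375 CPM in SIRMu-1, no reads in rMC-1 and 13.1, 2.17, 6.75 and 5.77 CPM in Primary MC. It was at least 281-fold lower in rMC-1 than in Primary MC, and at least 40.5-fold higher in SIRMu-1 than in rMC-1. Its fall in SIRMu-1 against Primary MC (−2.78 ± 0.80, adjusted p = 0.0175) was lost without Primary MC replicate 1 (−2.28, adjusted p = 0.0551) and with the drug-treated cultures alone (adjusted p = 0.154).

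**Figure D4:**
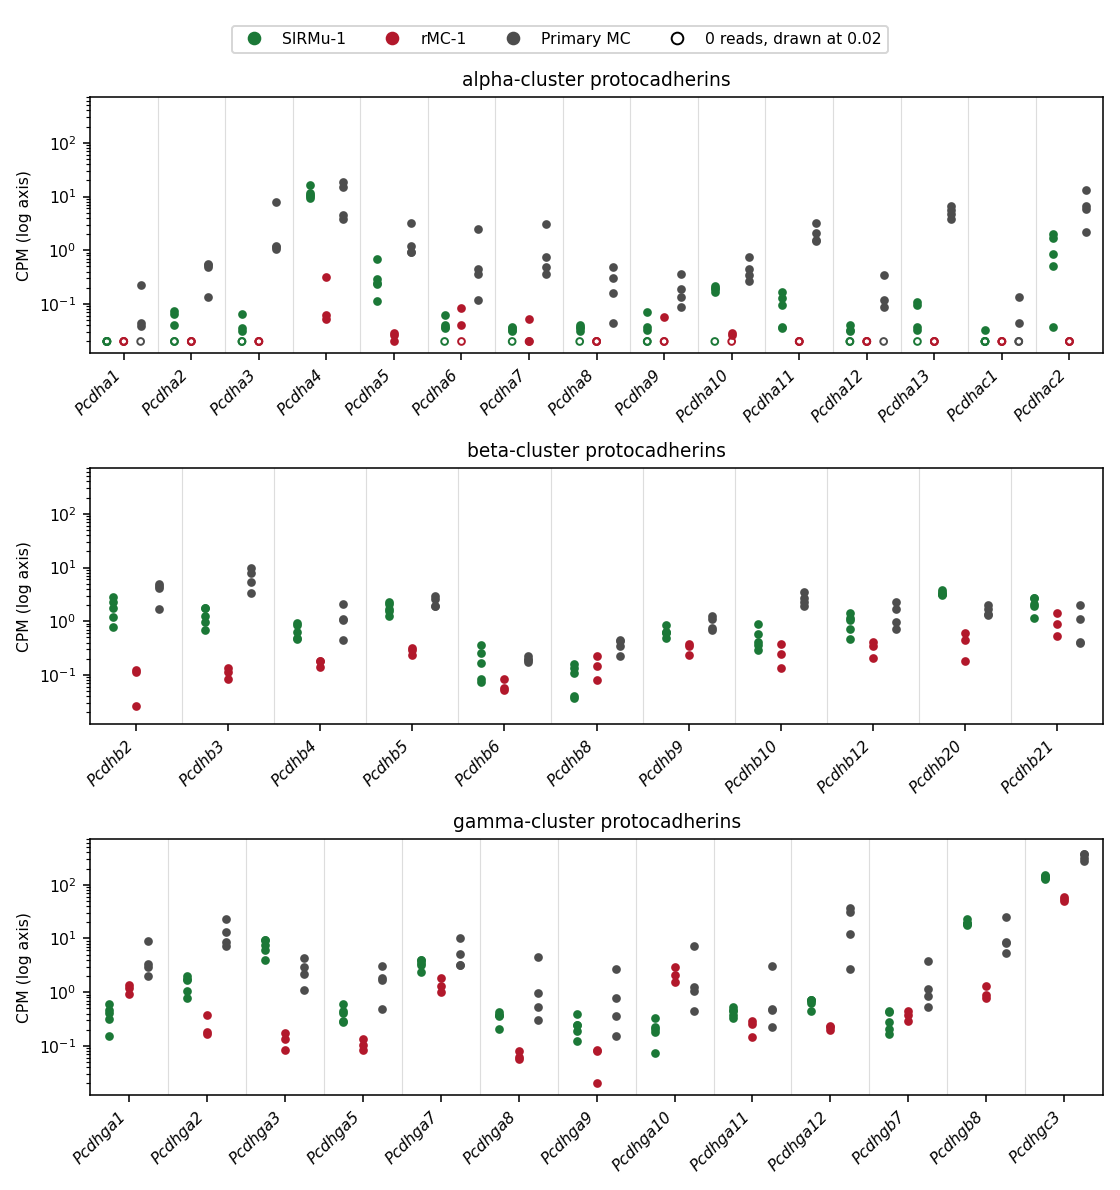
Level of each clustered protocadherin in every library, in CPM on a log axis, with a panel for each cluster and, for each gene, SIRMu-1 left, rMC-1 in the middle and Primary MC right; open circles at 0.02 stand for 0 reads. Among alpha genes Pcdha4 alone keeps SIRMu-1 levels (9.25 to 16.4 CPM) at the height of Primary MC (3.89 to 18.5 CPM).

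Of the beta genes, which have no shared last exons, 1 of 10 tested rose and 3 fell in SIRMu-1, and none rose and 8 fell in rMC-1, against Primary MC. Called were 40% and 80%, where all tested genes gave 46.1% and 70.8%. Pcdhb20 rose, standing at 3.17, 3.43, 3.14, 3.26 and 3.86 CPM in SIRMu-1, 0.598, 0.185 and 0.448 CPM in rMC-1 and 1.30, 2.02, 1.34 and 1.72 CPM in Primary MC. The 3 groups did not overlap. Its log2 fold change was 1.08 ± 0.31 in SIRMu-1 against Primary MC (edgeR adjusted p = 0.0136), −1.96 ± 0.37 in rMC-1 against Primary MC (adjusted p = 0.000573) and 3.04 ± 0.38 in SIRMu-1 against rMC-1 (adjusted p = 3.35e-05). The first of these was lost with the drug-treated cultures alone (1.14, adjusted p = 0.0913) and under a replicate block (1.02, adjusted p = 0.0547).

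Pcdhb3 had the opposite sign in SIRMu-1, at 1.25, 1.76, 1.73, 0.955 and 0.674 CPM, with 0.114, 0.0824 and 0.132 CPM in rMC-1 and 8.05, 5.39, 3.31 and 9.78 CPM in Primary MC. No levels overlapped, and the fall in SIRMu-1 was −2.38 ± 0.37 (edgeR adjusted p = 0.000386). Pcdhb20 took 21.7% to 33.8% of beta reads in SIRMu-1, 7.03% to 17.2% in rMC-1 and 5.75% to 9.69% in Primary MC. Pcdhb3 took 5.90% to 12.3% in SIRMu-1, 2.82% to 5.05% in rMC-1 and 15.7% to 41.5% in Primary MC. The beta gene with the most reads was Pcdhb20 in all 5 SIRMu-1 libraries and Pcdhb21 in all 3 rMC-1 libraries. In Primary MC it was Pcdhb3 in 3 libraries and Pcdhb2 in the other. Reads are not corrected for gene length, so the order of genes by transcripts may differ. Pcdhb10 fell in both lines (−2.35 in SIRMu-1 and −3.36 in rMC-1). Pcdhb2 and Pcdhb5 fell in rMC-1 (−5.36 and −3.04) and did not pass in SIRMu-1 (−1.11 and −0.39). Pcdhb2 passed there without SIRMu-1 replicate 3, rMC-1 replicate 3 or Primary MC replicate 2 (−1.34, −1.13 and −1.36), and with DESeq2 (−1.14).

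**Figure D5:**
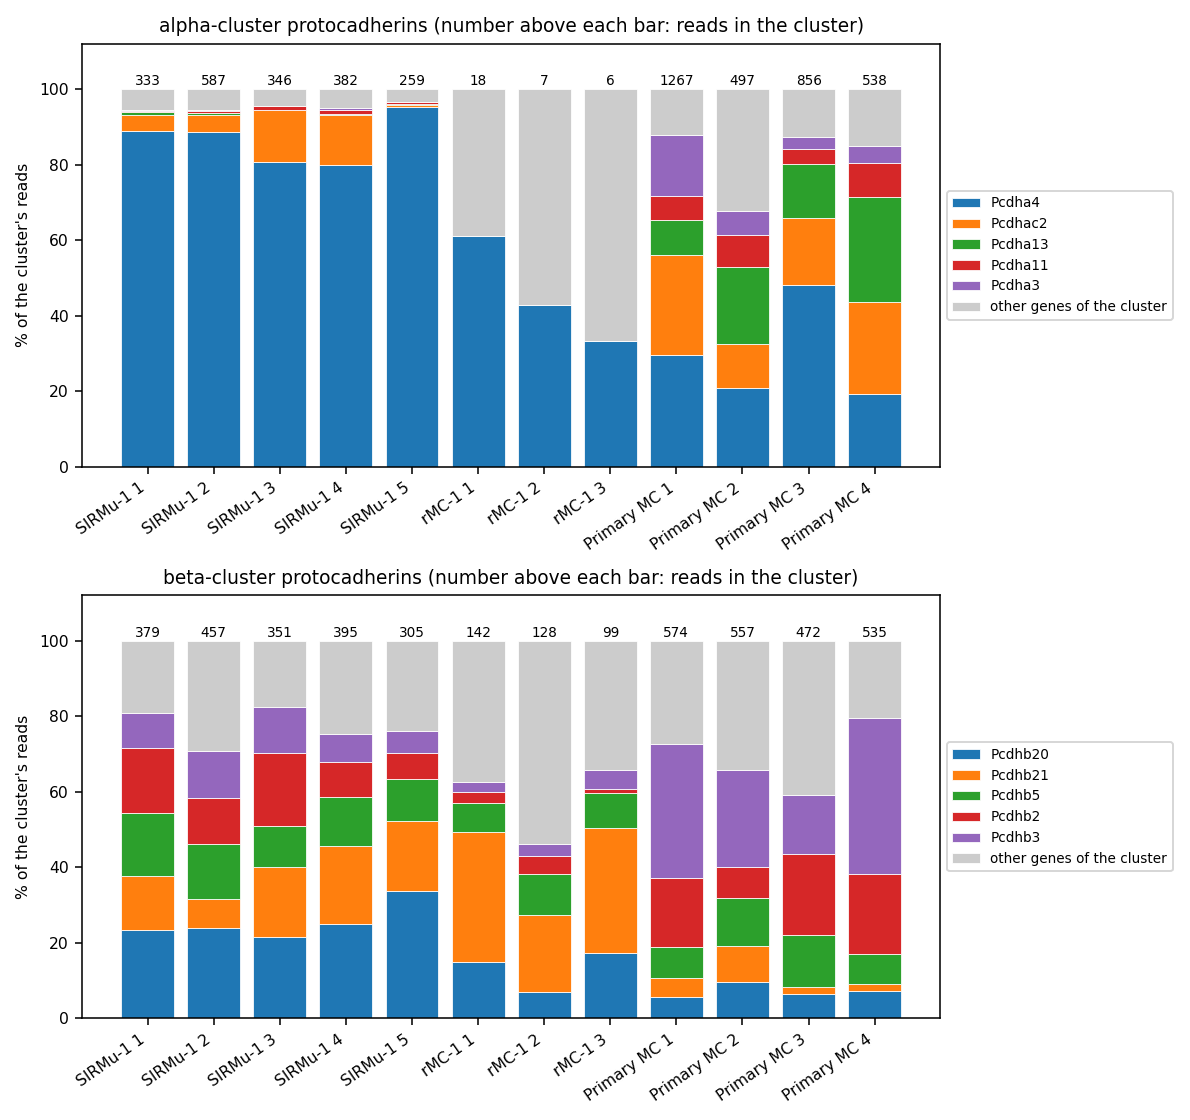
Share of the alpha reads (upper panel) and beta reads (lower panel) taken by 5 genes of each cluster, in percent, for every library, SIRMu-1 left, rMC-1 in the middle and Primary MC right, with the reads in the cluster above each bar. Pcdha4 takes 79.8% to 95.4% of alpha reads in SIRMu-1, and Pcdhb20 has the most beta reads there. Pcdhb3 has the most beta reads in 3 of the 4 primary libraries.

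Of the 13 gamma genes, 1 rose and 9 fell in SIRMu-1, and none rose and 12 fell in rMC-1. Called were 76.9% and 92.3%, where all tested genes gave 46.1% and 70.8%. Pcdhgc3, the C-type gene expressed widely in neural cells and glia, held 79.2% to 81.4% of gamma reads in SIRMu-1, 87.1% to 90.4% in rMC-1 and 78.2% to 86.0% in Primary MC. It stood at 138, 148, 130, 150.0 and 134 CPM in SIRMu-1, 54.6, 59.5 and 49.1 CPM in rMC-1 and 278, 368, 321 and 376 CPM in Primary MC. The groups were cleanly ordered: SIRMu-1 was −1.26 ± 0.11 against Primary MC (edgeR adjusted p = 9.38e-06), rMC-1 was −2.63 ± 0.13 (adjusted p = 4.71e-08), and SIRMu-1 was 1.36 ± 0.12 above rMC-1 (adjusted p = 3.27e-06), all on the log2 scale.

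Pcdhga3 was the gamma gene that rose in SIRMu-1. It stood at 9.28, 9.31, 6.07, 7.67 and 3.97 CPM in SIRMu-1, 0.171, 0.0824 and 0.132 CPM in rMC-1 and 1.10, 4.38, 2.15 and 3.00 CPM in Primary MC. SIRMu-1 replicate 5 overlapped Primary MC replicate 2. Its log2 fold change was 1.45 ± 0.39 in SIRMu-1 against Primary MC (edgeR adjusted p = 0.0104), 0.92 and not called with the drug-treated cultures alone (adjusted p = 0.202), and 5.80 ± 0.58 in SIRMu-1 against rMC-1 (adjusted p = 6.56e-06). Pcdhgb8 resembled it, at 18.8, 19.3, 19.4, 23.1 and 18.0 CPM in SIRMu-1, 0.769, 1.30 and 0.895 CPM in rMC-1 and 8.20, 24.6, 8.72 and 5.33 CPM in Primary MC. It missed the threshold in SIRMu-1 against Primary MC (0.75, adjusted p = 0.117), and without Primary MC replicate 2 it passed (1.41, adjusted p = 0.00063), as it did under a replicate block (1.01, adjusted p = 0.0481).

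Pcdhga12 and Pcdhga2 fell in both lines. Pcdhga12 stood at 0.711, 0.629, 0.702, 0.724 and 0.450 CPM in SIRMu-1, 0.199, 0.227 and 0.237 CPM in rMC-1 and 31.2, 2.73, 36.2 and 12.2 CPM in Primary MC (−4.99 ± 0.61 in SIRMu-1, edgeR adjusted p = 8.76e-05). Pcdhga2 stood at 0.782, 1.76, 1.07, 1.68 and 1.99 CPM in SIRMu-1, 0.370, 0.165 and 0.184 CPM in rMC-1 and 23.4, 8.76, 13.3 and 7.40 CPM in Primary MC (−3.17 ± 0.41 in SIRMu-1, adjusted p = 0.000115). Neither line overlapped Primary MC for these genes. Pcdhga10 was instead low in SIRMu-1, at 0.0749 to 0.329 CPM, with 2.93, 1.54 and 2.05 CPM in rMC-1 and 1.06, 1.27, 0.447 and 7.32 CPM in Primary MC. SIRMu-1 was lower than rMC-1 (−3.39 ± 0.78, adjusted p = 0.00245) and lower than Primary MC (−3.61, adjusted p = 0.00244), where Primary MC replicate 4 moved the value to −2.18 when left out. Both calls were lost with codes summed (adjusted p = 0.0675 each).

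Of 15 listed genes known to act on the clusters, 11 were found by symbol and tested. In SIRMu-1 against Primary MC 7 rose, none fell and 4 did not pass, so 63.6% rose where 21.7% of all tested genes did. In rMC-1 against Primary MC 10 rose, none fell and 1 did not pass, so 90.9% rose where 31.9% of all did. SIRMu-1 was lower than rMC-1 for 10 and higher for none, so 90.9% were lower where 30.5% of all tested genes were. Ctcf, the factor that loops cluster promoters to their enhancers, stood at 87.8, 83.2, 83.2, 98.6 and 108 CPM in SIRMu-1, 209, 192 and 206 CPM in rMC-1 and 63.2, 72.0, 66.1 and 57.1 CPM in Primary MC. No group overlapped another (0.51 ± 0.10 in SIRMu-1 and 1.65 ± 0.12 in rMC-1, each against Primary MC, with edgeR adjusted p = 0.00208 and 4.15e-07). The cohesin subunit gene Rad21 and Dnmt1, which maintains DNA methylation, moved alike (0.90 and 1.18 in SIRMu-1, 2.74 and 2.98 in rMC-1). Dnmt1 of SIRMu-1 replicate 2, at 50.6 CPM, lay within the primary range. Dnmt3b, which methylates cluster promoters in mouse, rose by 1.21 in SIRMu-1 and 2.48 in rMC-1 on the log2 scale, and the first was lost with codes summed (adjusted p = 0.0938). The relation of these levels to those of the clusters was not tested.

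The catenins that link classical cadherins to actin did not share a direction. Of 18 catenins and junction partners, 4 rose and 5 fell in SIRMu-1 against Primary MC, and 3 rose and 5 fell in rMC-1. The share called was 50% in SIRMu-1 and 44.4% in rMC-1, where all tested genes gave 46.1% and 70.8%. Ctnnb1, encoding beta-catenin, stood at 340 to 387 CPM in SIRMu-1, 336 to 388 CPM in rMC-1 and 381 to 478 CPM in Primary MC and passed no test. Ctnna2, the neural alpha-catenin, was also low in both lines: it had at most 0.0826 CPM in SIRMu-1, 1 read in all in rMC-1 and 8.09, 1.91, 1.21 and 7.10 CPM in Primary MC (−6.83 ± 0.81 in SIRMu-1, edgeR adjusted p = 7.7e-05). Neither line overlapped Primary MC. Ctnnd2, the neural delta-catenin, was instead low in rMC-1 alone, at 20.0 to 41.5 CPM in SIRMu-1, 0.0263 to 0.103 CPM in rMC-1 and 7.56 to 47.5 CPM in Primary MC (8.83 ± 0.81 in SIRMu-1 against rMC-1, adjusted p = 3.49e-06). Pvrl1, encoding nectin-1, stood at 3.27 to 4.79 CPM in SIRMu-1, 0 to 0.105 CPM in rMC-1 and 223 to 274 CPM in Primary MC, so that it fell in both lines (−5.97 ± 0.24 and −12.17 ± 0.43).

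Transcription factors of the epithelial to mesenchymal transition, which set the balance of classical cadherins, were divided. Of 12 tested, 5 rose and 4 fell in SIRMu-1 against Primary MC, 2 rose and 7 fell in rMC-1, and 8 were higher and 3 lower in SIRMu-1 than in rMC-1. The shares called were 75%, 75% and 91.7%, where all tested genes gave 46.1%, 70.8% and 63.2%. Zeb1, a repressor of Cdh1, stood at 152, 128, 148, 145 and 103 CPM in SIRMu-1, 49.4, 64.6 and 57.1 CPM in rMC-1 and 44.0, 33.7, 78.9 and 39.9 CPM in Primary MC (1.46 ± 0.23 in SIRMu-1, edgeR adjusted p = 0.000428). Zeb1 in rMC-1 overlapped Primary MC. Prrx1, a mesenchymal factor, stood at 32.7 to 71.3 CPM in SIRMu-1, 0.0285 to 0.124 CPM in rMC-1 and 54.5 to 142 CPM in Primary MC (−10.23 ± 0.64 in rMC-1, adjusted p = 1.78e-07). Grhl2, which supports epithelial cadherin expression, stood at 0.0329 to 0.0826 CPM in SIRMu-1, 9.09, 15.1 and 17.5 CPM in rMC-1 and had no reads in Primary MC. It passed the filter through rMC-1, and its count among the factors that rose in SIRMu-1 rests on a few reads.

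Of 12 genes for cadherin-cleaving proteases and subunits of their complexes, 6 fell and none rose in SIRMu-1 against Primary MC, and 1 rose and 9 fell in rMC-1. The share that fell was 50% in SIRMu-1 and 75% in rMC-1, where 24.4% and 38.9% of all tested genes fell. Mmp14, a protease anchored in the membrane, stood at 462, 428, 535, 581 and 432 CPM in SIRMu-1, 109, 95.1 and 92.5 CPM in rMC-1 and 1187, 1289, 948 and 515 CPM in Primary MC. It fell in rMC-1 without overlap (−3.31 ± 0.29, edgeR adjusted p = 1.6e-06) and in SIRMu-1 with overlap (−1.01 ± 0.22, adjusted p = 0.00321), and the SIRMu-1 call was lost with codes summed (adjusted p = 0.118). Mmp3 had no reads in SIRMu-1, 1 read in rMC-1 and 1.54, 1.39, 11.6 and 79.1 CPM in Primary MC.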

How the data were processed

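Poly(A) RNA was made into libraries with a KAPA stranded kit (10 PCR cycles) and sequenced on a NextSeq500 for 75 cycles, per the labels. The authors deposited raw counts of reads per gene for each library, and the submitters' processing notes name cutadapt 1.8.1, STAR 2.5.3a, edgeR 3.18.1 and rn6, with no roles. For the annotation and strand setting, nothing is stated (not given in the sources used here). Of mapped reads, 57.0% to 64.4% lay in genes, 24.8% to 30.9% in no feature, 9.64% to 12.6% mapped to several places and 0.154% to 0.197% were ambiguous, and all but the first were left out. The authors' deposited table of TMM log2 CPM was not used.

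Counts were fitted with edgeR 4.0.16 (R 4.3.3, limma 3.58.1): filterByExpr (minimum count 10, minimum total 15), TMM, 3 group means over 12 libraries (9 residual degrees of freedom) and the quasi-likelihood test, adjusted by Benjamini-Hochberg over 11321 genes. Counting intervals are exact at 95%, and 3 reads over the group stand in for 0; both cover counting error only. The labels do not say that libraries came from separate cultures, and the file names of some carry one code, so p-values measure the spread between these samples, which may be technical. Alternatives were DESeq2 1.42.0 (test and size factors), library totals, other filters, the 2 groups compared alone, a replicate block, codes summed, drug-matched cultures and each library left out.

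The members, gene lists and rules were chosen with earlier results of these data known. Members were named from a list of main cadherins and, per comparison and direction, the 8 largest non-overlapping calls of at least 1 CPM in a group; of each partner list the 3 largest calls were named. Clustered protocadherins outside that rule, the other Cdh genes and Ctnnb1, Zeb1, Ctcf and further markers were named after their values were seen.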

Additional observations from a re-analysis of the deposited data

Results flagged for a closer look

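In 7 of 48 groups examined, 1 library stood apart from the rest by Dixon's ratio, past its 95% critical value. Only SIRMu-1 and Primary MC levels of members named by the list and the largest calls were examined, where a library reached 1 CPM. rMC-1 was left out, as were members named after their values were seen, such as Cdh8, Cdh22 and Cdh19. For normally spread levels, chance gives about 1 in 20. The CPM values were not put on a log scale and the members were named partly by their levels, so that rate need not apply. In SIRMu-1, Cdh2 reached 23.7 CPM in replicate 4 (others 1.39 to 5.44), Cdh3 11.8 CPM in replicate 5 (others 1.21 to 3.34) and Fat1 6250 CPM in replicate 2 (others 4815 to 5202). In Primary MC, Pcdh7 reached 258 CPM in replicate 4 (others 124 to 141) and Pcdhga10 7.32 CPM in the same replicate (others 0.447 to 1.27). Pcdha3 reached 8.05 CPM in Primary MC replicate 1 (others 1.06 to 1.21), and Pcdh20 reached 188 CPM in replicate 2 (others 8.84 to 12.9).

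In 8 members the lines were called in opposite directions against Primary MC, and the test of SIRMu-1 against rMC-1 was itself past the threshold. SIRMu-1 was higher for Pcdhb20 (log2 difference 3.04), Pcdhga3 (5.80), Pcdh7 (11.71) and Cdhr1 (at least 23200-fold). It was lower for Celsr2 (−7.13), Cdh16 (−4.57), Cdh23 (−8.21) and Cdh3 (−6.51). The share of all tested genes called in this way was not computed. With the drug-treated SIRMu-1 cultures alone, the SIRMu-1 call against Primary MC was lost for Pcdhb20, Pcdhga3, Pcdh7, Celsr2, Cdh16, Cdh23 and Cdh3. Of these members, only Pcdhb20 had SIRMu-1 levels that did not overlap Primary MC.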

How the results depend on the processing

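Over all alternatives the members gave 3483 values: 3302 kept direction and side of the threshold, 113 lost a call, 31 gained one and 37 changed sign, none of them called in the reported analysis. In SIRMu-1 against Primary MC (4 higher, 31 lower), summing libraries of a file-name code left 17 lower, and drug-matched SIRMu-1 cultures left 2 higher and 20 lower; fewer libraries entered both. With a library left out, the counts ranged over 3 to 5 higher and 22 to 33 lower in SIRMu-1 against Primary MC, 7 to 8 and 38 to 48 in rMC-1 against Primary MC, and 24 to 31 and 10 to 11 in SIRMu-1 against rMC-1. The lowest counts of lower genes against Primary MC, 22 and 38, came without Primary MC replicate 4. Library totals in place of TMM moved the median of all genes to 0.32 in rMC-1 against Primary MC and to −0.40 in SIRMu-1 against rMC-1. Without the filter on low counts all 77 members were fitted, and 4 were higher and 39 lower, 7 and 54, and 29 and 11 in SIRMu-1 against Primary MC, rMC-1 against Primary MC and SIRMu-1 against rMC-1. Depth leaves genes with 3 or fewer reads in a group without a usable fold change.

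Signs changed in SIRMu-1 against Primary MC for Pcdh9 (−0.21) and Ctnnd2 (0.32) with drug matching, Fat4 (0.05) with codes summed and Pcdh18 (−0.57) with the replicate block. They changed in rMC-1 against Primary MC for Pcdhb21 (0.41 with library totals, 0.23 with codes summed) and Pcdhga10 (0.17 with library totals, 0.99 with the block), and in SIRMu-1 against rMC-1 for Pcdha7 (−0.22 with library totals, −0.02 with codes summed). With a library left out, SIRMu-1 against Primary MC ranged from −1.94 to 0.06 for Cdh1, −1.18 to 0.50 for Cdh10, −0.05 to 0.27 for Cdh15, −1.03 to 0.22 for Cdhr5, −0.37 to 0.30 for Ctnnd2, −0.24 to 0.10 for Fat1, −0.64 to 0.15 for Fat4, −0.45 to 0.32 for Pcdh18, −0.94 to 0.13 for Pcdh19, −0.13 to 0.57 for Pcdha4 and −1.61 to 0.11 for Pcdhga11. SIRMu-1 against rMC-1 ranged from −0.09 to 3.25 for Cdh2, −1.36 to 0.31 for Fat3 and −0.37 to 0.96 for Pcdha7, and rMC-1 against Primary MC from −0.41 to 0.54 for Pcdhb21 and −0.56 to 1.21 for Pcdhga10. The cause was not tested.

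Deviations of same-numbered libraries correlated at −0.06 to 0.10 in SIRMu-1 against Primary MC and 0.04 to 0.07 in rMC-1 against Primary MC. In SIRMu-1 against rMC-1 the values were 0.01 to 0.07. The library of the same number was the best match for 0 of 4, 3 of 3 and 1 of 3 libraries in these comparisons. Correlations this weak cannot settle whether the numbers pair the samples. With the replicate block, 5 members were higher and 29 lower, 7 and 44, and 25 and 9 in these comparisons.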
